A study of Mus musculus with 4 samples.

Results

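The genes described are the enzymes that buffer oxidants through glutathione, thioredoxin and methionine sulfoxide repair. They were chosen by symbol: the glutathione S-transferases (Gst) and their microsomal relatives (Mgst), the glutathione peroxidases (Gpx), peroxiredoxins (Prdx), thioredoxins and relatives (Txn), glutaredoxins (Glrx), superoxide dismutases (Sod), catalase (Cat), methionine sulfoxide reductases (Msr) and the enzymes that make and reduce glutathione (Gclc, Gclm, Gss, Gsr). The rule found 50 genes, read by 66 probe sets, among 8251 genes with a probe set of 1 gene symbol. A further 4 probe sets list such a symbol beside a second gene and were left out.

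Signals came from gastrocnemius and soleus muscle of male mice, 6.5 months old and of C57BL/6x129 background, taken without treatment. Crhr2-/- mice (KO) lack a receptor for urocortin peptides, and Crhr2+/+ littermates (WT) served as controls. RNA of 2 mice was pooled on each Affymetrix U74Av2 array, with 2 arrays per genotype and 4 in all. All groups shared sex, age and background, and each array averages its pooled mice.

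Cells remove superoxide with superoxide dismutases, which turn it into hydrogen peroxide. Catalase, glutathione peroxidases and peroxiredoxins then break the peroxide down. Glutathione and thioredoxin supply the electrons and are returned to their reduced forms by reductases that draw on NADPH. Glutathione S-transferases attach glutathione to lipid aldehydes and foreign compounds, and methionine sulfoxide reductases repair oxidised methionine. Working muscle makes such oxidants in its mitochondria and at its membranes.

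The brighter probe set of Crhr2 itself read 154 and 192 in WT, against 100.4 and 75.1 in KO, with no overlap. Its dimmer probe set read 18.8 and 45.3 in WT, against 36.7 and 22.7 in KO, which overlap. Where these probes lie relative to the deleted part is not given in the labels, which limits this check of the genotype. Markers of skeletal muscle were present in the arrays: 7 of 7 measured genes had a mean above the median of the table, and their summed signal ran from 57061 to 63955. Signals of other tissues differed between arrays. Of 13 liver genes, 12 were lower in KO on average and 10 were highest in WT replicate 2, among them albumin, at 1016 there and 78.7 to 230.0 on the other arrays. All 9 measured exocrine pancreas genes were highest in KO replicate 1, where they summed to 13133, against 1757 and 1695 in WT and 4006 in KO replicate 2. Slow-fibre genes summed to 12407 in WT replicate 1 and to between 16457 and 21369 on the other arrays. In such tissue RNA, fewer cells of a type and less RNA per cell cannot be told apart.

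The redox readings with an unadjusted p under 0.05 were Msrb1, Glrx and Gsta4, each lower in KO, and 1 of 2 Gstm2 probe sets, higher in KO. None of them passed adjustment for the 12422 probe sets tested. Values were taken as log2(intensity + 14), and fold changes below are KO minus WT on that scale with standard errors from limma. With limma, 0 of 66 redox probe sets had a Benjamini-Hochberg adjusted p under 0.05, and 0.0% of all probe sets did. At an unadjusted p under 0.05 there were 4, of which 1 was higher in KO and 3 lower. Over the whole array 2.57% of probe sets were higher and 2.86% lower by that limit. An exact permutation test of 2 against 2 arrays cannot go below a two-sided p of 0.333.

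Of the 66, 36 were higher and 30 lower in KO, with 0.03 as the median log2 fold change, against 0.00 over all probe sets. The groups did not overlap for 12 redox probe sets as higher (18.2%) and 6 as lower (9.09%), while over the array 17.0% of probe sets were separated as higher and 17.6% as lower. A difference of at least 2-fold without overlap was met by 2 redox probe sets, those of Gsta4 and Gstm2, and by 1.99% of all. The median size of the genotype difference, between means of 2 arrays, was 0.14 among redox probe sets and 0.19 over the array. Among probe sets above the median of the table it was 0.13 for the 50 redox ones and 0.15 for all. Single arrays of the same genotype differed, among redox probe sets, by a median of 0.22 in WT and 0.25 in KO. Over the array these medians were 0.24 and 0.26. Above the median of the table they were 0.22 and 0.23 for redox probe sets and 0.19 and 0.20 for all.

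**Figure D1:**
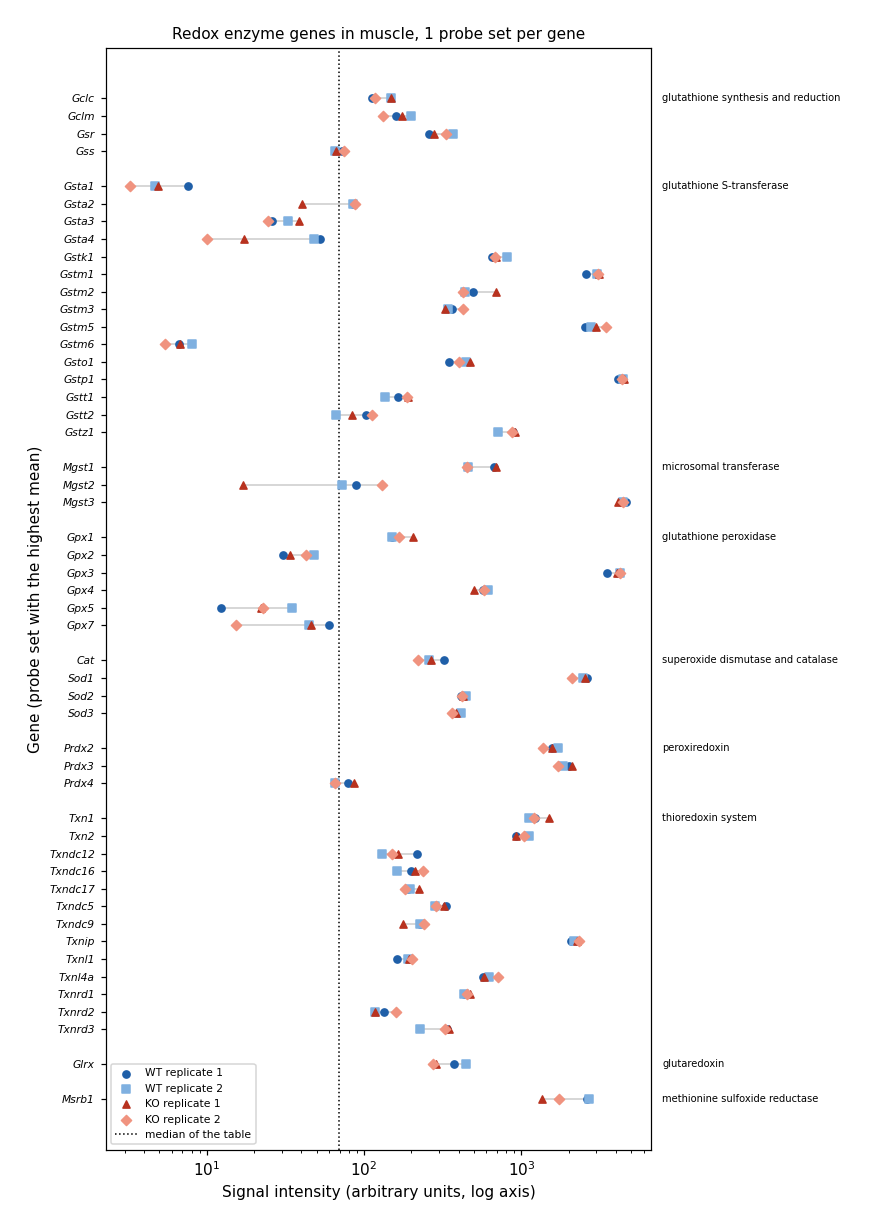
Signal intensity (arbitrary units, log axis) of 50 redox genes on each of the 4 arrays, 1 probe set per gene, ordered by role. Blue symbols are WT and red symbols KO arrays, and the dotted line is the median of the table, 69.2. For Msrb1, Glrx and Gsta4 both KO arrays lie below both WT arrays, while most genes have overlapping symbols.

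Methionine sulfoxide reductases turn the oxidised form of methionine back to methionine, and Msrb1 acts on the R form in cytosol and nucleus. It is a selenoprotein, with selenocysteine at its active site. Msrb1 (Entrez gene 27361) read 2628 and 2708 in WT, against 1356 and 1726 in KO. Both KO arrays lay well below both WT arrays, and the WT arrays were close together. The KO mean of 1541 ± 261 (SD, n = 2) was 57.8% of the WT mean of 2668 ± 56.4 (SD, n = 2). The log2 fold change was -0.80 ± 0.14, with a 95% interval from -1.13 to -0.47 (limma unadjusted p = 0.000962, adjusted p = 0.803). This p ranked 10 among all 12422. With each array left out in turn the value lay between -0.97 and -0.62. It was -0.77 without WT replicate 2 and -0.62 without KO replicate 1. Both KO arrays had less summed liver signal and more summed pancreas signal than both WT arrays. Leaving out 1 array does not remove that difference, and its part in the Msrb1 reading was not tested. Msrb1 was the 1 methionine sulfoxide reductase with a probe set of its own here.

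Glutaredoxins use glutathione to remove glutathione from protein thiols. The cytosolic glutaredoxin Glrx (Entrez gene 93692) read 371 and 444 in WT, against 285 and 274 in KO. Its KO arrays agreed closely and lay below both WT arrays, at 68.5% of the WT mean. On the log2 scale the difference was -0.52 ± 0.15 (limma unadjusted p = 0.0118, adjusted p = 0.803). Without WT replicate 2 the difference was -0.39 and its unadjusted p = 0.0842 by limma. Liver genes were also highest in that array, and their part in the Glrx difference was not tested.

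**Figure D2:**
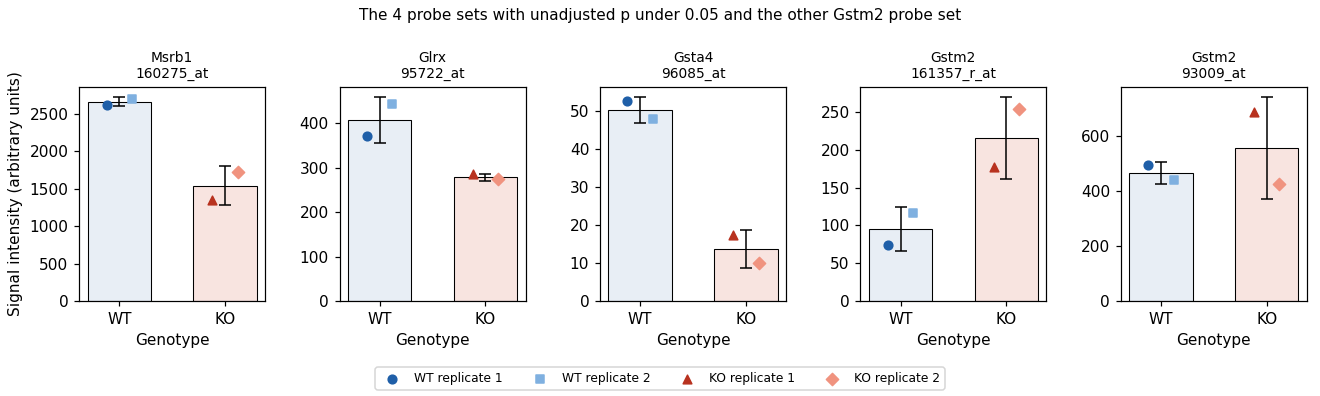
Signal intensity (arbitrary units, linear axes from 0) of the 4 redox probe sets with an unadjusted p under 0.05 and of the other Gstm2 probe set. Bars are means of 2 arrays with SD, and symbols are the arrays. Msrb1, Glrx and Gsta4 are lower in both KO arrays, and only 1 of the Gstm2 probe sets separates the genotypes.

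Stretches before the annotated starts of 5 redox genes are shown because Msrb1, Glrx and Gstm2 had the small unadjusted p named above, Gstm5 is a mu neighbour with 3 kinds of motif and Gclm carries an antioxidant response match. The letters are the gene's strand, from RefSeq on GRCm38.p6, 250 bases up to the base before the start. Capitals mark matches on either strand to TGACNNNGC (the core of the antioxidant response element bound by NRF2), TGANTCA (an AP-1 site) or GGGCGG (a GC box bound by SP1-like factors). The first motifs can overlap, since a TGACTCA followed by GC holds both.
Msrb1: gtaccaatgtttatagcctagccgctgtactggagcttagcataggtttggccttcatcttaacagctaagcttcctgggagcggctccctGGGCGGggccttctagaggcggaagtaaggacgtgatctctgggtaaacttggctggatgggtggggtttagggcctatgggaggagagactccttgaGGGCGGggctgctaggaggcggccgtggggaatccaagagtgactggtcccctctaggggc
Glrx: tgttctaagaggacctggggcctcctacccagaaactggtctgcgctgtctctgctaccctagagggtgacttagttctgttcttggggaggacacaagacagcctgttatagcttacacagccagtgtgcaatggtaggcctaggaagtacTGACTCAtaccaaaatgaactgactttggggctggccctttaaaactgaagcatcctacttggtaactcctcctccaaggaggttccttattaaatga
Gstm2: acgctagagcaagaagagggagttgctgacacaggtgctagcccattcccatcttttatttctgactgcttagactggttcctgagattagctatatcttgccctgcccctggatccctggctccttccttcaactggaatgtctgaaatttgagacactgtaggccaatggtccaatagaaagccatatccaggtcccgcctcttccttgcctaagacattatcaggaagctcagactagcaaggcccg
Gstm5: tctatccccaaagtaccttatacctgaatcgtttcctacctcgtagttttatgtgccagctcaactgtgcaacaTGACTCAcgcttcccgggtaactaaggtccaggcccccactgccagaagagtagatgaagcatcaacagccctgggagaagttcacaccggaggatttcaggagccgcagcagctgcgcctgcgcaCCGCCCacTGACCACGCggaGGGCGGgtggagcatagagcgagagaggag
Gclm: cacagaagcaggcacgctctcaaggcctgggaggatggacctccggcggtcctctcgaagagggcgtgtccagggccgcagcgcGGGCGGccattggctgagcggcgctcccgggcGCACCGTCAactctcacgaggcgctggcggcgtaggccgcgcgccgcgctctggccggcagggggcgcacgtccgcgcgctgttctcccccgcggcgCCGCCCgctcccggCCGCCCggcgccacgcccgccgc

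They lie at chr17:24736343-24736592 (plus strand) for Msrb1, chr13:75839635-75839884 (plus) for Glrx, chr3:107986421-107986670 (minus) for Gstm2, chr3:107895604-107895853 (plus) for Gstm5 and chr3:122245307-122245556 (plus) for Gclm. Of the 50 redox genes, 43 had such a stretch. The antioxidant response core was found in 7 of their 56 stretches, or 12.5%, and in 10.2% of all 32851. Those 32851 stretches belong to 27025 annotated genes and are not limited to genes on the array. Redox genes with a match were Gclm, Gsta3, Gstm5, Mgst1, Sod1, Txndc5 and Txnrd1. The AP-1 site was found in 8.93% of redox and 6.75% of all stretches, and the GC box in 55.4% and 32.7%. Of the 3 printed genes with a small unadjusted p, Msrb1 held GC boxes and Glrx an AP-1 site, and Gstm2 had none of these letters in the window. A match is a description of the letters only.

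Glutathione S-transferases of the alpha class handle lipid peroxidation products, and Gsta4 acts on hydroxynonenal, an aldehyde of oxidised lipid. Gsta4 (Entrez gene 14860) read 52.7 and 47.9 in WT, against 17.3 and 10.1 in KO. Its signal was dim, meaning a mean not above 69.2, the median of the table, and the KO arrays lay far below the WT arrays. The log2 fold change was -1.23 ± 0.35 (limma unadjusted p = 0.0114, adjusted p = 0.803). Without KO replicate 2 it was -1.04, with a limma unadjusted p = 0.0675. It was -0.61 with 4 times the pseudocount. Summed liver signal was also lower in KO, at 2242 and 2518 in WT, against 1363 and 1567 in KO. Of these sums Cyp2e1, the 1 liver gene higher in KO on average, made up 1484 and 563 in WT, against 1008 and 1095 in KO. Of the 13 liver genes, 10 were highest in WT replicate 2. The part of liver signal in the Gsta4 difference was not tested. The other alpha genes gave weak readings: Gsta1 and Gsta3 were dim on every array and overlapped, and Gsta2 read 84.5 and 84.9 in WT, against 40.2 and 87.9 in KO. Of the 4 alpha genes 3 were lower and 1 higher in KO, with 1 separated, against 17.6% separated as lower over the array.

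The mu class was read by 12 probe sets of 5 genes, Gstm1, Gstm2, Gstm3, Gstm5 and Gstm6. In the reference annotation these genes lie side by side, with at most 1 other protein-coding gene between neighbours. The class conjugates electrophiles in many tissues. Of the 12 probe sets, 9 were higher and 3 lower in KO, with log2 fold changes from -0.23 to 1.08 around a median of 0.11. All 5 that separated the genotypes were higher in KO, against 17.0% of the array separated as higher and 17.6% as lower. Of the 5, the brighter Gstm1 probe set overlapped with median centring. Another of the 5 was a dim Gstm6 probe set, at 2.68 and 1.7 in WT, against 4.38 and 5.63 in KO. The brighter Gstm6 probe set, also dim, overlapped at -0.09. Mu genes are close paralogs, and probe sets whose names end in f or r can share signal among them, so the 12 readings are not independent. Every separated mu probe set that was not dim had such a name. The Gstm2 and Gstm5 probe sets that were not dim and had no such ending overlapped, at 0.21 and 0.06.

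Gstm2 (Entrez gene 14863) gave different answers on its 2 probe sets. On the dimmer, whose name ends in r, it read 74.6 and 116 in WT, against 178 and 254 in KO. Both KO arrays were higher, at 226% of the WT mean, a log2 fold change of 1.08 ± 0.28 (limma unadjusted p = 0.00851, adjusted p = 0.803). Without KO replicate 2 it was 0.84, with a limma unadjusted p = 0.0714. Summed pancreas signal was higher in both KO arrays, at 1757 and 1695 in WT, against 13133 and 4006 in KO. The part of pancreas signal in the Gstm2 readings was not tested. On the brighter probe set Gstm2 read 495 and 438 in WT, against 686 and 426 in KO, where KO replicate 2 was the lowest array. The log2 fold change there was 0.21 ± 0.23, and it was -0.12 without KO replicate 1.

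Gstm5 read 2527 and 2772 in WT, against 2994 and 3475 in KO on its brightest probe set, with no overlap (log2 fold change 0.28 ± 0.12, limma unadjusted p = 0.0517, adjusted p = 0.908). Its other 3 probe sets overlapped, at 0.06, 0.02 and -0.04. Gstm1 read 2591 and 3019 in WT, against 3131 and 3073 in KO, and its log2 fold changes were 0.15 ± 0.11 and 0.31 ± 0.23, separated on both probe sets at the deposited scale. Gstm3 read 364 and 343 in WT, against 325 and 428 in KO on 1 probe set (0.07 ± 0.17). It read 294 and 355 in WT, against 401 and 184 in KO on the other (-0.23 ± 0.34), and this value was 0.30 with KO replicate 2 left out and -0.77 with KO replicate 1 left out. Gstm6 was dim on every array, at 1.7 to 8.08.

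Transferases of the remaining classes had log2 fold changes from -0.09 to 0.30. Gstp1, the pi enzyme, read 4111 and 4431 in WT, against 4486 and 4339 in KO (0.05 ± 0.10, 95% interval -0.20 to 0.30). Gstt1, a theta enzyme active on small halogenated compounds, read 165 and 136 in WT, against 190.2 and 187 in KO, so its groups were separated (0.30 ± 0.19). Gstt2 of the same class and the omega enzyme Gsto1 overlapped at 0.20 ± 0.32 and 0.13 ± 0.17. Gstz1, which also serves tyrosine breakdown, and the mitochondrial kappa enzyme Gstk1 overlapped at 0.16 ± 0.14 and -0.09 ± 0.13. Gstk1 is the 1 redox gene within 20 Mb of Crhr2.

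Microsomal transferases are membrane proteins, some of which make leukotrienes. Mgst3 read 4654 and 4417 in WT, against 4145 and 4421 in KO, which overlap (-0.08 ± 0.10). Its second probe set was dim, with 4.57 and 5.45 in WT, against 11.7 and 6.47 in KO (0.27 ± 0.22). Mgst1 showed a split between arrays of the same genotype: it read 672 and 460.1 in WT, against 687 and 449 in KO, with a genotype difference of -0.00 ± 0.25. Mgst2 read 88.7 and 72.1 in WT, against 17.1 and 130.3 in KO on its brighter probe set, where the KO arrays enclosed the WT arrays (-0.49 ± 0.70). Leaving out KO replicate 1 gave 0.62 and leaving out KO replicate 2 gave -1.60, and the dimmer probe set had the opposite sign (0.17 ± 0.46).

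**Figure D3:**
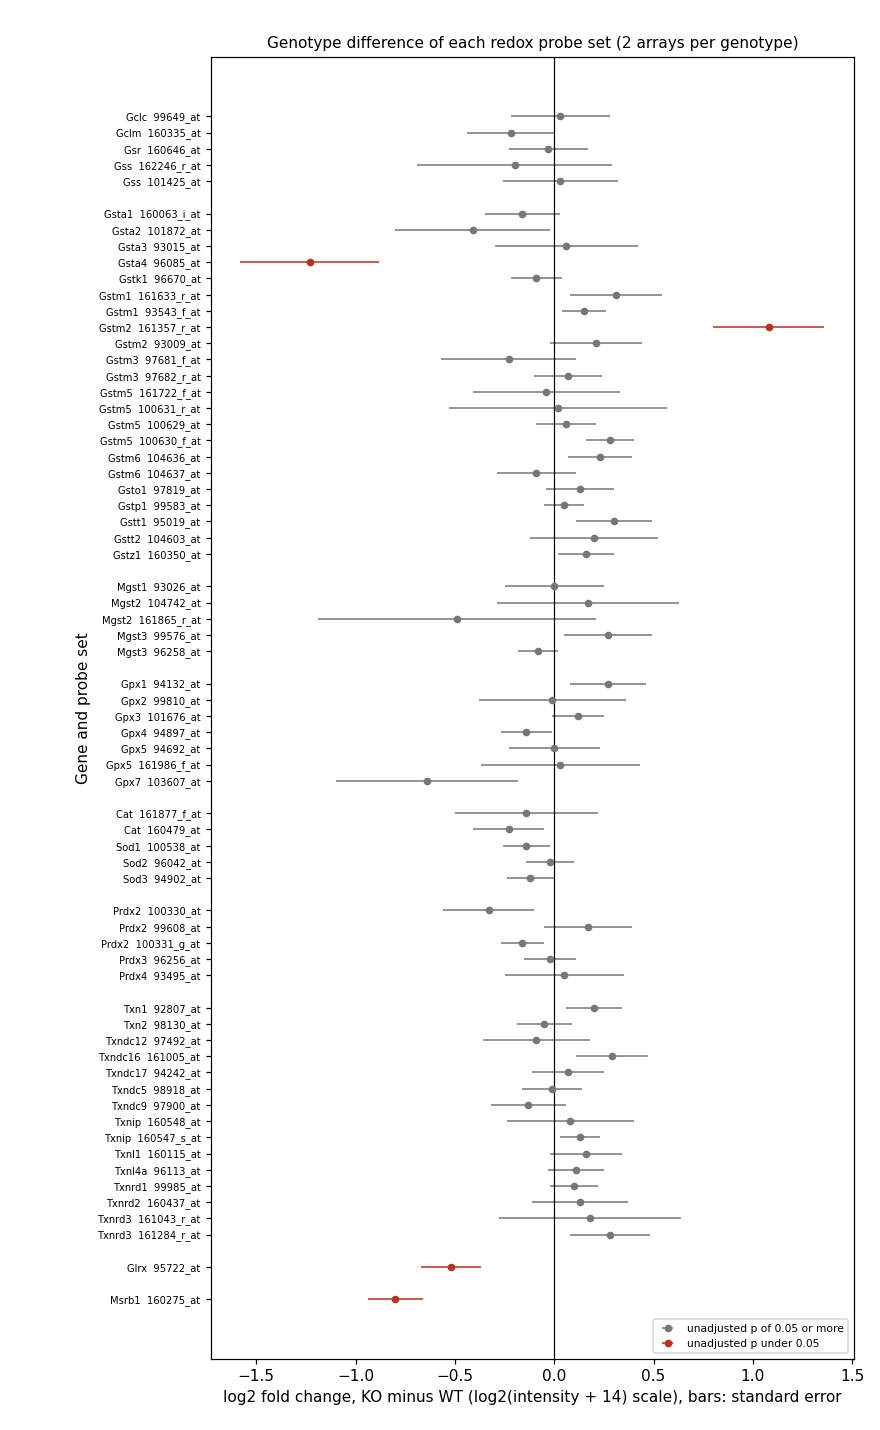
Log2 fold change (KO minus WT, log2(intensity + 14) scale) of all 66 redox probe sets with limma standard errors, ordered by role, from 2 arrays per genotype. Red marks the 4 probe sets with an unadjusted p under 0.05: Msrb1, Glrx and Gsta4 lie left of 0 and 1 Gstm2 probe set lies right of it.

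Glutathione itself is made by glutamate-cysteine ligase, with its catalytic subunit Gclc and modifier Gclm, and by glutathione synthetase Gss. Gclc read 112 and 148 in WT, against 148 and 118 in KO, and Gclm 160.1 and 199 in WT, against 175 and 131 in KO. Both genes overlapped, at 0.03 ± 0.25 and -0.22 ± 0.22. The glutathione reductase Gsr read 258 and 368 in WT, against 277 and 331 in KO, where the WT arrays enclosed the KO arrays (-0.03 ± 0.20, 95% interval -0.52 to 0.47). Gss had log2 fold changes of 0.03 ± 0.29 and -0.20 ± 0.49 on its 2 probe sets, both overlapping.

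Glutathione peroxidases reduce peroxides, Gpx4 those in membranes and Gpx3 those in plasma. Gpx3 read 3481 and 4244 in WT, against 4067 and 4263 in KO, so the groups overlapped (0.12 ± 0.13). The cytosolic Gpx1 read 150.2 and 151 in WT, against 205 and 167 in KO, both KO arrays being higher (0.27 ± 0.19, limma unadjusted p = 0.206, adjusted p = 0.908). Gpx4 overlapped at 572 and 618 in WT, against 499 and 581 in KO. Gpx2, Gpx5 and Gpx7, known from gut, epididymis and the endoplasmic reticulum, were dim and overlapped.

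The superoxide dismutases and catalase were read slightly lower in KO by all 5 of their probe sets, with log2 fold changes from -0.23 to -0.02, and 1 of the 5 was separated, against 17.6% of the array separated as lower. Over the array 6213 probe sets were higher and 6209 lower. Sod2 and the dimmer catalase probe set changed sign when an array was left out. The cytosolic copper-zinc enzyme Sod1 read 2614 and 2449 in WT, against 2525 and 2093 in KO (-0.14 ± 0.12). The mitochondrial manganese enzyme Sod2 read 414 and 446 in WT, against 425 and 421 in KO (-0.02 ± 0.12, 95% interval -0.32 to 0.27). The secreted Sod3 read 402 and 412 in WT, against 386 and 362 in KO, the separated case (-0.12 ± 0.12). Catalase, the peroxisomal enzyme, read 321 and 257 in WT, against 268 and 219.6 in KO and overlapped (-0.23 ± 0.18). On its second probe set it read 151 and 201 in WT, against 107 and 230.0 in KO (-0.14 ± 0.36), and this value was 0.37 without KO replicate 1 and 0.05 without WT replicate 2.

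Peroxiredoxins reduce peroxides with a reactive cysteine, Prdx2 in cytosol and red cells, Prdx3 in mitochondria and Prdx4 in the endoplasmic reticulum. Prdx2 was given opposite signs by its probe sets. On the brightest it read 1570 and 1711 in WT, against 1563 and 1375 in KO (-0.16 ± 0.11), separated here but overlapping with median centring, and on the next it read 169 and 251 in WT, against 242 and 226 in KO (0.17 ± 0.22). On the dim last it read 3.19 and 10.9 in WT, against 2.54 and 2.45 in KO (-0.33 ± 0.23). Red-cell genes were higher in KO for 4 of 5 measured, among them alpha globin Hba-a1 at 6645 and 5359 in WT, against 8683 and 7747 in KO, and their part in the Prdx2 readings was not tested. Prdx3 read 1995 and 1841 in WT, against 2088 and 1721 in KO (-0.02 ± 0.13), and Prdx4 overlapped at 0.05 ± 0.30.

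Thioredoxin passes electrons from thioredoxin reductase to peroxiredoxins and other targets. This family, with 13 genes and 15 probe sets, had 11 probe sets higher and 4 lower in KO, with 0.11 as the median log2 fold change, and 4 were separated, all as higher. Over the array 17.0% of probe sets were separated that way. None of the 15 had an unadjusted p under 0.05. Txn1, the cytosolic thioredoxin, read 1215 and 1118 in WT, against 1495 and 1197 in KO and overlapped (0.20 ± 0.14). The mitochondrial Txn2 overlapped at 921 and 1126 in WT, against 924 and 1046 in KO.

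Of the reductases, which are selenoproteins, Txnrd1 in cytosol read 431 and 433 in WT, against 471 and 454 in KO, separated by a small step (0.10 ± 0.12, 95% interval -0.19 to 0.38). Txnrd2 in mitochondria and Txnrd3 overlapped, at 0.13 ± 0.24 and, on the brighter probe set, 0.28 ± 0.20. Txnip, the arrestin-like protein that binds thioredoxin and restrains glucose uptake, read 2059 and 2168 in WT, against 2271 and 2342 in KO (0.13 ± 0.10, separated). On its second probe set it read 114 and 72.1 in WT, against 82.1 and 115 in KO and overlapped (0.08 ± 0.32). Txndc16, of the endoplasmic reticulum, had the smallest unadjusted p of the family, reading 199 and 163 in WT, against 211 and 236 in KO (0.29 ± 0.18, limma unadjusted p = 0.167, adjusted p = 0.908). Txnl1 was the remaining separated gene, at 0.16 ± 0.18. Txndc5, Txndc9, Txndc12, Txndc17 and Txnl4a, a splicing factor with a thioredoxin fold, lay between -0.13 and 0.11 and overlapped.

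By location, the 7 mitochondrial genes (Prdx3, Txn2, Txnrd2, Sod2, Gpx4, Gstk1 and Gstz1) lay between -0.14 and 0.16 on 1 probe set each, and none of them was separated. Of the 8 selenoprotein genes (Gpx1, Gpx2, Gpx3, Gpx4, Txnrd1, Txnrd2, Txnrd3 and Msrb1), 5 were higher and 3 lower, and 3 were separated, close to the 34.6% separated over the array. Msrb1 was at -0.80 and the other 7 lay between -0.14 and 0.28.

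**Figure D4:**
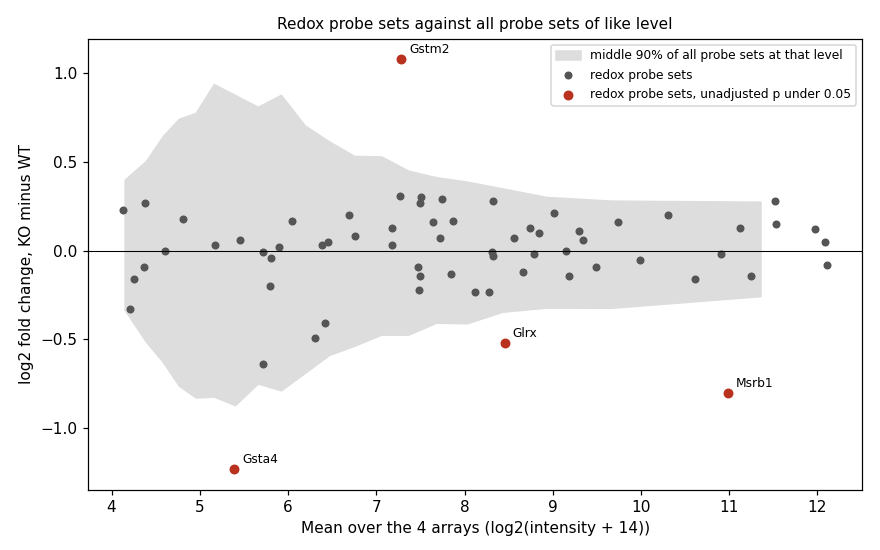
Log2 fold change (KO minus WT) of each redox probe set against its mean over the 4 arrays, both on the log2(intensity + 14) scale. The grey band holds the middle 90% of all probe sets in each of 20 bins of level. It is drawn between the outermost bin means, 4.148 and 11.354. By their bins, Msrb1, Glrx, Gsta4, 1 Gstm2 and 1 Gstm5 probe set lie outside the middle 90%. Probe sets beyond the drawn ends, that of Gstm5 among them, have no band beside them.

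Beside probe sets of like level, 5 of the 66 redox probe sets, or 7.58%, lay outside the middle 90% of all probe sets, which leaves 10% outside by construction. They were the 4 with an unadjusted p under 0.05 and Gstm5 on its brightest probe set. At the level of Msrb1 the lower edge of the band was at -0.26, and Msrb1 was at -0.80. Gstm5 lay at the edge, at 0.28 against an upper edge of 0.276.

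Genes around these enzymes were taken from lists of the pathway and had 0 calls at an adjusted p under 0.05 by limma, with the counts at an unadjusted p under 0.05 given for each list. Over the array that limit was passed by 2.57% as higher and 2.86% as lower. Among 14 measured enzymes that supply NADPH, 6 were higher and 8 lower, and 1 had an unadjusted p under 0.05. That gene was Pgls, the lactonase of the pentose phosphate pathway, which read 564 and 473 in WT, against 315 and 436 in KO (-0.46 ± 0.19). G6pd2, a glucose-6-phosphate dehydrogenase, was dim and read 5.76 and 7 in WT, against 32.8 and 13.2 in KO.

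Of 22 measured regulators and targets of the antioxidant response, 11 were higher and 11 lower, and 1 had an unadjusted p under 0.05. It was Keap1, the adaptor that sends NRF2 for degradation, with dim readings of 40.4 and 59.5 in WT, against 15.6 and 10.4 in KO (-1.23 ± 0.36, limma adjusted p = 0.803). NRF2 itself, Nfe2l2, read 259 and 173 in WT, against 218 and 236 in KO and overlapped. The target Nqo1 read 132 and 139 in WT, against 142 and 69.9 in KO, and Hmox1 299 and 239 in WT, against 269 and 513 in KO, both overlapping. The transporter Abcc2 was dim, at -0.71 ± 0.37.

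Other glutathione genes, counting the metallothioneins Mt1, Mt2 and Mt3, held 4 of 17 with an unadjusted p under 0.05, all lower in KO. Across the array, 2.86% of probe sets were lower by that limit. Hagh, the second enzyme of the glyoxalase route, read 371 and 411 in WT, against 273 and 270.0 in KO (-0.50 ± 0.14, limma unadjusted p = 0.00952, adjusted p = 0.803). Its partner Glo1 overlapped at 0.01 ± 0.14. Nit1, which hydrolyses deaminated glutathione, read 229 and 253 in WT, against 149 and 164 in KO. Ptges, a prostaglandin synthase that uses glutathione, was dim at 47.2 and 69.2 in WT, against 19 and 13.9 in KO, and the metallothionein Mt2 read 924 and 548 in WT, against 465 and 399.5 in KO. The list as a whole had 8 higher and 9 lower genes and a median of -0.13.

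Among 13 other selenoproteins and genes of selenocysteine synthesis, counting the selenium-binding protein Selenbp1, 6 were higher and 7 lower, and 0 had an unadjusted p under 0.05 by limma. The genotypes did not overlap for 10 of the 13, 4 as higher and 6 as lower, while 34.6% of all probe sets were separated in either direction. Of these 10, Dio1, Selenow, Sepsecs and Sephs1 were dim, and Selenof and Selenok differed by only -0.02 and 0.07. Selenot read 2485 and 2399 in WT, against 2515 and 2906 in KO, and Selenof 1507 and 1520 in WT, against 1484 and 1501 in KO. The deiodinase Dio1 and Selenow, a selenoprotein of muscle, had the smallest p, with dim readings and log2 fold changes of -0.42 ± 0.18 and -0.81 ± 0.42. Of 15 genes of the methionine cycle and cysteine supply, 8 were higher and 7 lower, with 0 under that limit by limma. Slc3a2, the heavy chain of amino acid exchangers, read 395 and 387 in WT, against 474 and 466 in KO (0.26 ± 0.12), and Pemt was dim at -0.76 ± 0.42.

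Sources of superoxide and hydrogen peroxide were 9 higher and 7 lower of 16 measured, and 2 had an unadjusted p under 0.05 by limma, 1 higher and 1 lower. The D-amino acid oxidase Dao was dim and read 57.2 and 35 in WT, against 14 and 9.34 in KO (-1.21 ± 0.36, limma unadjusted p = 0.0147, adjusted p = 0.803). Ncf4, a subunit of the phagocyte oxidase, was dim and read 25.6 and 7.61 in WT, against 46.8 and 42.4 in KO (limma unadjusted p = 0.049, adjusted p = 0.908). Of 12 phagocyte markers 5 were higher and 7 lower, with summed signals from 1199 to 1230, and their part in Ncf4 was not tested. Xanthine dehydrogenase Xdh read 238 and 206 in WT, against 202 and 197 in KO (-0.14 ± 0.17).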

How the data were processed

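Each array contributed a single linear intensity for every probe set, as deposited by the authors. How the authors summarised and background-corrected the arrays, and on which genome build, is, in the sources used here, not given. Deposited intensities were used unscaled, since trimmed means were 200.2 on every array and array medians lay within 0.06 on the log2 scale. From 12488 probe sets, 66 controls were dropped, leaving 12422, which were all fitted whatever their level as log2(intensity + 14), 14 being 20% of the median. Genotype was tested two-sided by limma (version 3.58.1, under R 4.3.3) through lmFit and eBayes (trend on), and p-values were adjusted by Benjamini-Hochberg across the table. The scripts were tested on simulated data. The labels do not say how mice were assigned to pools. The p-values rest on the spread between 2 pools of each genotype, which eBayes moves towards the spread of probe sets of like level. The number of arrays limits the precision.

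The platform annotation gave 1 symbol to 10833 probe sets, several to 396 and none to 1193. Of the 10833, 10817 were found in the reference table GRCm38.p6, including all 66 redox probe sets. Names in f, g, i, r or s mark probe sets of shared or relaxed design and made up 17 of the 66. Selenoproteins and locations were taken from textbook knowledge, where a protein table had been planned for the former.

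The redox genes and the lists of related genes and markers were chosen with earlier results of these data known. Genes described in full were those with an unadjusted p under 0.05, in each role the gene of the highest mean and of the smallest p, and genes whose probe sets above the median differ in sign. From each related list the 2 genes of smallest p were named, and others after their values were seen. Alternatives were the pseudocount, a level filter, quantile or median scaling, no trend, the replicate number as a block, each array left out, 1 probe set per gene and, chosen after seeing the data, only probe sets without a name ending. Shared replicate numbers are not labelled as pairs.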

Additional observations from a re-analysis of the deposited data

How the results depend on the processing

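The count of redox probe sets called by limma stayed at 0 under all settings tried, and 3 to 6 redox probe sets had an unadjusted p under 0.05. The count at least 2-fold apart without overlap, 2, was 0 with 4 times the pseudocount, 1 with the level filter, 1 with 1 probe set per gene, 1 without name endings, 3 at 1.5-fold and 1 to 3 with an array left out. The higher separated count of 12 was 7 without name endings and 22 to 26 with an array left out, and the lower count of 6 was then 14 to 21. With 3 arrays a probe set separates more easily by construction. The median of 0.03 was 0.05 with the level filter and -0.02 to 0.04 with an array left out. The replicate block gave 0 calls, a median of 0.03 and 5 probe sets with an unadjusted p under 0.05, and changed no call. Same-numbered arrays did not deviate together (r = 0.003 over probe sets).

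Of the 66 redox probe sets, 29 kept their direction in every setting, 14 lower and 15 higher in KO, among them Msrb1, Glrx, Gsta4 and the dimmer Gstm2 probe set. The other 37 turned with some array left out. Their ranges over the arrays left out were -0.12 to 0.55 for the brighter Gstm2 probe set, -0.12 to 0.27 and -0.77 to 0.30 for Gstm3, -0.11 to 0.23, -0.62 to 0.66 and -0.27 to 0.20 for 3 of Gstm5, -0.87 to 0.05 for Gsta2, -0.17 to 0.28 for Gsta3, -0.25 to 0.06 for Gstk1, -0.04 to 0.31 for Gsto1, -0.01 to 0.10 for Gstp1 and -0.07 to 0.48 for Gstt2. They were -0.30 to 0.30 for Mgst1, -1.60 to 0.62 and -0.41 to 0.75 for Mgst2, -0.25 to 0.23 for Gpx2, -0.03 to 0.26 for Gpx3, -0.42 to 0.47 and -0.06 to 0.07 for Gpx5, -0.15 to 0.22 for Gclc, -0.27 to 0.22 for Gsr, and -0.04 to 0.10 and -0.83 to 0.42 for Gss. They were -0.10 to 0.44 for the second brightest Prdx2 probe set, -0.15 to 0.12 for Prdx3, -0.12 to 0.22 for Prdx4, -0.64 to 0.37 for the dimmer Cat probe set and -0.07 to 0.03 for Sod2. In the thioredoxin family they were -0.19 to 0.09 for Txn2, -0.44 to 0.26 for Txndc12, -0.07 to 0.21 for Txndc17, -0.12 to 0.10 for Txndc5, -0.32 to 0.07 for Txndc9, -0.21 to 0.37 for the dimmer Txnip probe set, -0.04 to 0.25 for Txnl4a, -0.07 to 0.33 for Txnrd2 and -0.47 to 0.83 for the dimmer Txnrd3 probe set. Values at about 0 also changed sign otherwise, Gpx5 to -0.00 with 4 times the pseudocount and to -0.01 with quantile scaling and with median centring, and Mgst1 to 0.00 with quantile scaling. With median centring Gpx4 and the brighter Mgst3 probe set became separated as lower. A lone array was assumed to vary like the other genotype.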
